A study of Mus musculus with 4 samples.

Results

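The cells described here are barcodes with transcripts of cytotoxic lymphocytes, CD8 T cells and natural killer (NK) cells, that were found among lymphocytes sorted from mouse visceral adipose tissue as live CD3+ CD4+ Foxp3+ regulatory T cells (Tregs). A barcode was counted as a member when it had 500 or more genes, under 10% of its unique molecular identifiers (UMIs) from mitochondrial genes, 1 condition hashtag with 90% or more of the hashtag counts, no UMI of Cd79a (B cells), Lyz2 (myeloid cells) or Foxp3, and a UMI of 2 or more of the 8 genes Cd8a, Cd8b1, Klrk1, Klrc1, Klrd1, Ncr1, Xcl1 and Gzmk. This held for 150 of the 18110 barcodes past the quality and hashtag filters. The members were thus chosen by the detection of these genes, whose levels are given as a description only.

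Both RNA libraries were made by 5′ droplet sequencing, and each held 2 conditions marked by hashtag antibodies. In the first, the KO cells came from Foxp3YFP-cre Srebf2flox/flox males and the WT cells from Foxp3YFP-cre Srebf2WT/WT males, 4 mice pooled per genotype at 25 weeks of age. Cre is driven there by Foxp3, so deletion of Srebf2, the transcription factor gene of cholesterol synthesis, is directed to cells that express Foxp3, and the WT controls carry the same Cre allele. In the second, Foxp3thy1.1 PpargTdt males aged 23 to 27 weeks had eaten a high-fat diet (HFD) or a normal chow diet (NCD) for 22 weeks, 5 mice pooled per diet. Each condition was thus 1 pool of mice and 1 sample, there was no replicate check, and no p-value was computed. Intervals are 95% exact intervals (Clopper-Pearson for shares, Poisson for UMI sums) and cover counting error only. The 2 matrices held 9036 and 11456 barcodes and shared 135 of them. Of the member barcodes, 3 also occurred in the other matrix and 0 were members in both.

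CD8 T cells recognise peptides on class I molecules through the T cell receptor, with CD8 as co-receptor, and kill through granzymes and perforin. They are known to accumulate in adipose tissue during obesity. NK cells lack a rearranged antigen receptor and sense targets through activating and inhibitory receptors, among them NKp46 (Ncr1), NKG2D (Klrk1) and the CD94/NKG2 pair (Klrd1 and Klrc1), several of which signal through the adaptors DAP12 (Tyrobp) and Fc receptor gamma (Fcer1g). Both kinds of cell would be excluded by a complete CD4 and Foxp3 gate.

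Members were 13 of 4109 KO barcodes (0.316%, interval 0.169 to 0.540) and 24 of 3676 WT barcodes (0.653%, 0.419 to 0.970). They were 75 of 4808 HFD barcodes (1.56%, 1.23 to 1.95) and 38 of 5517 NCD barcodes (0.689%, 0.488 to 0.944). With all UMIs counted and over all filtered barcodes, the intervals overlapped between KO and WT and did not overlap between HFD and NCD. Members were deeper than the barcodes around them, with a median of 5226 UMIs in KO, 4636 in WT, 5217 in HFD and 4733.5 in NCD, against 3661, 3629, 3227 and 4116 UMIs over all filtered barcodes of those conditions. When every barcode was thinned to 1500 UMIs, members made up 0.328% of KO, 0.535% of WT, 1.28% of HFD and 0.743% of NCD barcodes (13, 19, 58 and 40 members, since thinning removes Foxp3 UMIs as well as marker UMIs). Thinning left out 151 KO, 122 WT, 285 HFD and 134 NCD barcodes below that depth. The share of barcodes in which no Foxp3 was detected also differed: 2742 HFD and 2297 NCD barcodes had none of Foxp3, Cd79a and Lyz2, and members were 2.74% (2.16 to 3.42) of them in HFD and 1.65% (1.17 to 2.26) in NCD. The HFD and NCD intervals overlapped both in this count and after thinning. Since fewer Tregs and more CD8 cells in the sort both raise such a share, the 2 cannot be told apart here.

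By 3 of the genes that chose them, the members fell into separate kinds. A UMI of Cd8a or Cd8b1, the 2 chains of CD8, was present in 109 of the 150 members (called CD8-bearing), a UMI of Ncr1 in 24 others (Ncr1-bearing), and neither in 17. Of the CD8-bearing members, 24 had Cd8b1 without Cd8a, 3 of 8 in KO, 6 of 18 in WT, 11 of 67 in HFD and 4 of 16 in NCD. Ncr1 occurred with a CD8 chain in 0 members. CD8-bearing members were 8 of 13 in KO, 18 of 24 in WT, 67 of 75 in HFD and 16 of 38 in NCD. Ncr1-bearing members were 3 in KO, 4 in WT, 0 in HFD and 17 in NCD. The diet conditions thus differed in both kinds, in opposite directions. CD8-bearing members were 1.39% of HFD barcodes (1.08 to 1.77) and 0.290% of NCD barcodes (0.166 to 0.471). Ncr1-bearing members were 0 of 4808 HFD barcodes, which allows a share of up to 0.0624% (3 counts of the total), and 0.308% of NCD barcodes (0.180 to 0.493). Of the 75 HFD members alone, 0 with Ncr1 allows by the same limit a share of up to 4.0%, where NCD had 44.7%.

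**Figure D1:**
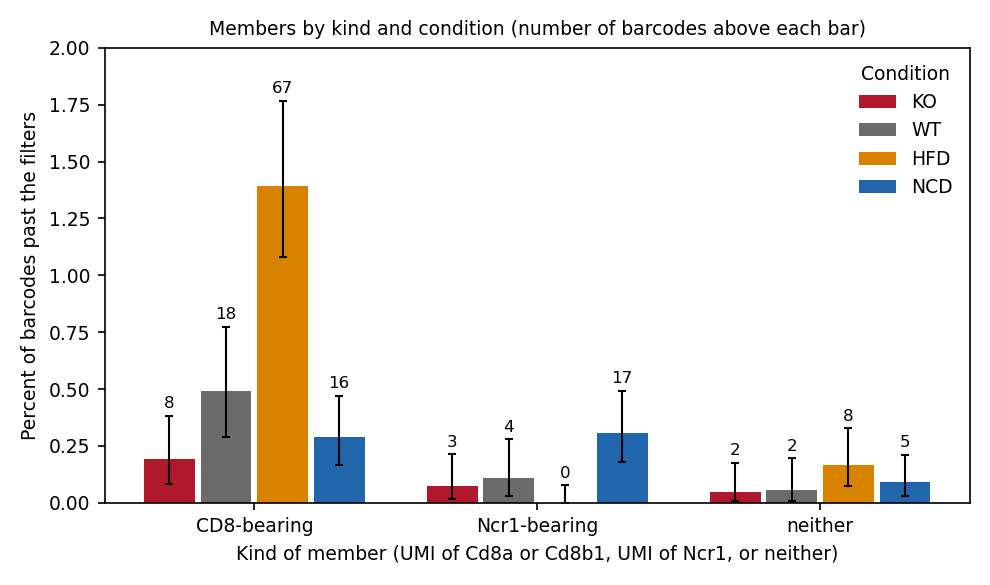
Percent of filtered barcodes that were CD8-bearing, Ncr1-bearing or neither, in KO, WT, HFD and NCD, with 95% exact intervals as bars and the number of barcodes above each. CD8-bearing members stand highest in HFD (67 barcodes) and Ncr1-bearing members in NCD (17 barcodes), with none in HFD.

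Among the CD8 chains, Cd8a had 12 UMIs in 5 KO members, 35 in 12 WT members, 178 in 56 HFD members and 24 in 12 NCD members. Cd8b1 had 27 UMIs in 8 KO, 74 in 17 WT, 387 in 65 HFD and 70 in 13 NCD members. Gzmk, a granzyme of memory-type CD8 T cells, had UMIs in 6 of 13 KO, 12 of 24 WT, 51 of 75 HFD and 6 of 38 NCD members, and in 0 of the 24 Ncr1-bearing ones. The most frequent combination of the 8 genes was Cd8a with Cd8b1 and Gzmk, in 21 HFD members. Klrk1 was detected in 8 of 13 KO, 12 of 24 WT, 21 of 75 HFD and 29 of 38 NCD members, and Klrd1 in 8, 12, 28 and 29. Klrc1 was detected in 6 KO, 6 WT, 13 HFD and 18 NCD members. Xcl1, a chemokine for cross-presenting dendritic cells, was detected in 4 KO, 12 WT, 18 HFD and 22 NCD members. HFD members were thus led by CD8 chains and Gzmk, and NCD members by NK receptors and Xcl1.

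**Figure D2:**
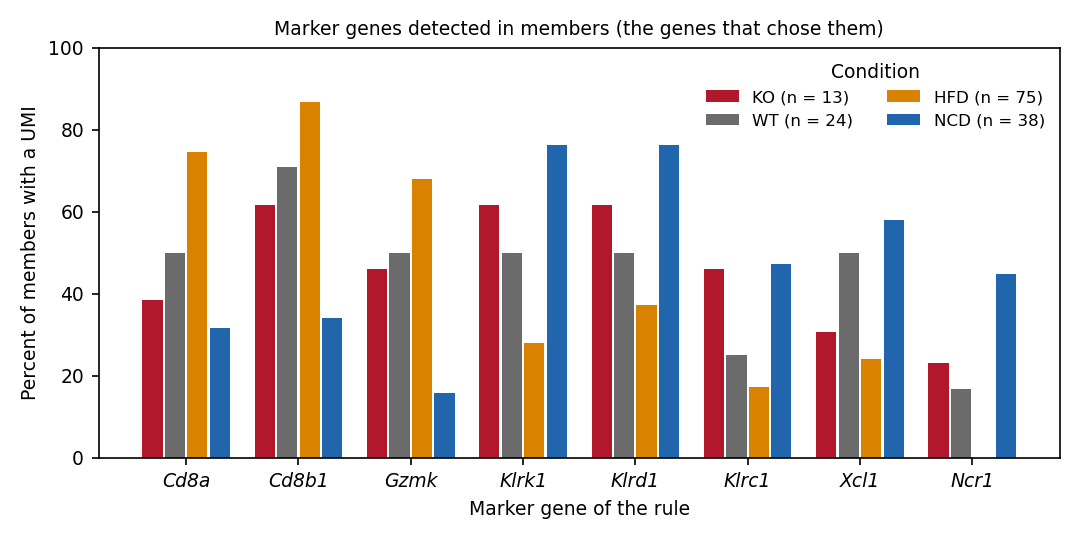
Percent of members with a UMI of each of the 8 genes that chose them, for 13 KO, 24 WT, 75 HFD and 38 NCD members. Cd8a, Cd8b1 and Gzmk are highest in HFD, and Klrk1, Klrd1, Xcl1 and Ncr1 are highest in NCD.

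The starts of 2 of the genes that never met in 1 member, Ncr1 and Gzmk, are shown here. Ncr1 defined 1 kind. Gzmk was absent from that kind and occurred in CD8-bearing members and in some with neither a CD8 chain nor Ncr1. The sequences are RefSeq promoters of GRCm38.p6, 250 bases before to 50 bases after the start, 5′ to 3′ on the gene's strand. Capitals mark TCACAC, the core of sites for T-box factors such as T-bet and Eomesodermin, and TGTGGT, the core of sites for RUNX factors, searched on both strands.
Ncr1 (chr7:4337465-4337764, plus strand): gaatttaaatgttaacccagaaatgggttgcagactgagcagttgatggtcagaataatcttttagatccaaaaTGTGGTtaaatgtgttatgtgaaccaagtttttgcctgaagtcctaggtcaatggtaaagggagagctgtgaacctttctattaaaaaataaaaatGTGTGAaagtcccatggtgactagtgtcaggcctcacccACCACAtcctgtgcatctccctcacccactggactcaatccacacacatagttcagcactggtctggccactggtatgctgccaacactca
Gzmk (chr13:113180916-113181215, minus strand): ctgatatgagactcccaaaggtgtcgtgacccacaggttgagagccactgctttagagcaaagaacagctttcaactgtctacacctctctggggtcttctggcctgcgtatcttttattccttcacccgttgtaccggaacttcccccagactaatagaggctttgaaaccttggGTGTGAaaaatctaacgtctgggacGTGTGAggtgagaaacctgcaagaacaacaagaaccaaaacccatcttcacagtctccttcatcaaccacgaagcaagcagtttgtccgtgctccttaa
Ncr1 held 1 match of the T-box core and 2 of the RUNX core, and Gzmk held 2 of the T-box core and 0 of the RUNX core. The promoters of Cd8a and Klrb1c, not printed, were searched in the same way. Cd8a held 0 matches of either core, and Klrb1c held 0 of the T-box core and 1 of the RUNX core. Over 32851 promoters of the same length, 14.5% held the T-box core and 16.8% the RUNX core. The matches describe these letters only, and a missing match says nothing of the factor. Eomes, the gene of Eomesodermin, had UMIs in 25 of 67 CD8-bearing HFD members, 2 of 16 CD8-bearing NCD members and 5 of 17 Ncr1-bearing NCD members. Both CD8 chain genes lie on chromosome 6 of this build, Cd8a at 71373427 to 71379171 and Cd8b1 at 71322788 to 71337492, as do Klrd1, Klrk1 and Klrc1.

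In barcodes with B cell genes, which should lack these transcripts, 7 of the 8 genes had 0 UMIs in all 240 barcodes and Cd8b1 had 1 UMI in 1 HFD barcode. Median depth there was 4728 UMIs in KO, 3901 in WT, 2929 in HFD and 4070 in NCD. Cd8b1 behaved differently in barcodes with a Foxp3 UMI. It was detected in 6.40% of 2250 KO, 6.44% of 1940 WT, 7.63% of 1848 HFD and 4.98% of 2671 NCD Foxp3-detected barcodes, while Cd8a was detected in 0.222%, 0.258%, 1.08% and 0.636% of them. Members had 2.25 Cd8b1 UMIs for each Cd8a UMI in KO, 2.11 in WT, 2.17 in HFD and 2.92 in NCD, against 17.5, 8.32, 4.67 and 4.69 in Foxp3-detected barcodes. A Cd8b1 UMI alone was therefore a weak mark of a CD8 T cell in these libraries. Just outside the rule, barcodes with exactly 1 of the 8 genes numbered 98 in KO, 62 in WT, 145 in HFD and 104 in NCD, and in 87, 55, 119 and 86 of them that gene was Cd8b1. They had Cd4 UMIs in 51 KO, 30 WT, 64 HFD and 56 NCD barcodes, and Nkg7, a cytotoxic granule gene, at 197, 56.9, 167 and 125 CPM (UMI counts scaled to one common total). Members with exactly 2 genes, 3 in KO, 6 in WT, 18 in HFD and 5 in NCD, had Nkg7 at 630, 1217, 1433 and 1637 CPM. Those with 3 or more had 1261 CPM in KO, 1595 in WT, 1887 in HFD and 1594 in NCD.

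Genes that the rule did not use also differed between the kinds. In NCD, Tyrobp had 184 UMIs in 17 of 17 Ncr1-bearing members and 0 in the 16 CD8-bearing members, at least 57.8-fold higher with the CD8-bearing sum set to 3 counts. Fcer1g had 170 UMIs in 17 of 17 Ncr1-bearing members and 0 in CD8-bearing ones, at least 53.4-fold higher. In HFD, both adaptors had 0 UMIs in all 67 CD8-bearing members. In KO, Tyrobp had 14 UMIs in 3 of 3 Ncr1-bearing and 0 in 8 CD8-bearing members. In WT, it had 26 UMIs in 3 of 4 Ncr1-bearing and 0 in 18 CD8-bearing members. B cell gene barcodes also held Tyrobp, at 88.3 CPM in KO, 88.0 in WT, 77.0 in HFD and 49.2 in NCD, far under the 2045 CPM of NCD Ncr1-bearing members.

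**Figure D3:**
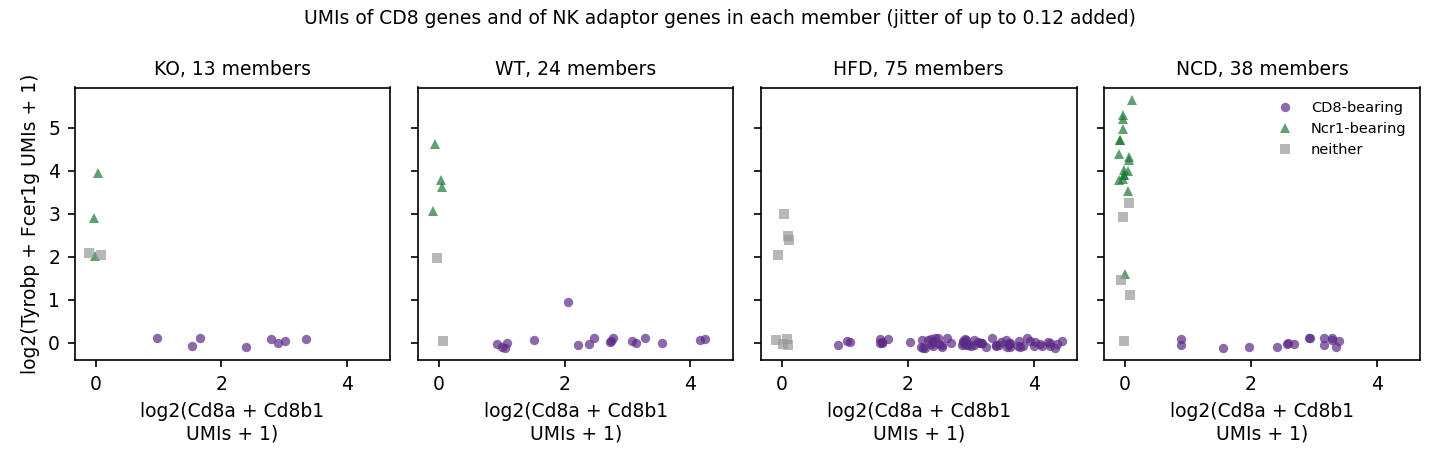
Each point is 1 member, in panels for KO, WT, HFD and NCD, with log2 of its summed Cd8a and Cd8b1 UMIs plus 1 on the horizontal axis and log2 of its summed Tyrobp and Fcer1g UMIs plus 1 on the vertical axis. CD8-bearing members lie along the bottom in each panel, with 1 WT member as the exception, and Ncr1-bearing members stand on the left edge, absent in HFD.

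Over the 1956 genes measured in NCD, 18% were 2-fold or more higher in Ncr1-bearing than in CD8-bearing members and 7.67% were 2-fold or more lower. A gene was measured when the higher group had 10 UMIs, 50 CPM and 5 cells, and 0.5 counts were added before a log2 ratio was taken. In all comparisons a group with fewer UMIs could need a higher CPM to pass. Counts of higher and lower genes can thus lean to the larger group. Of 16 measured NK-cell receptor and adaptor genes, 13 were higher and 1, Klrg1, was lower, with a median log2 ratio of 4.91 (3.00 with genes at 0 UMIs set to the 3-count limit), beside 0.20 over all genes. The list held 32 genes, and 8 of the 16 measured had 0 UMIs in 1 group, so they were measured only through the other. This count and median are thus a description of genes that passed the filter, not a test. Klrb1c, the NK1.1 antigen, had 59 UMIs in 16 of 17 Ncr1-bearing members and 1 UMI in CD8-bearing members, a log2 ratio of 5.22 with a counting interval of 3.26 to 11.12. Klra9 and Klra8, inhibitory and activating Ly49 receptors, had 45 and 35 UMIs in Ncr1-bearing members and 0 in CD8-bearing ones. Reads of the closely related Klra genes can be split between copies, so single Klra values are uncertain. Klre1, a partner of inhibitory and activating receptors, had 43 UMIs in 14 Ncr1-bearing and 7 in 3 CD8-bearing members, 4 of these in 1 member. Itgax, which encodes CD11c, had 19 UMIs in 13 of 17 Ncr1-bearing members and 1 UMI in CD8-bearing members, a log2 ratio of 3.61 (1.51 to 9.54). A marker list of type 1 innate lymphoid cells summed, without Ncr1, to 1779 CPM in Ncr1-bearing and 1616 CPM in CD8-bearing NCD members. The NK list without Ncr1 summed to 8059 and 330 CPM. Of the former list, Itga1 was higher in Ncr1-bearing members, a log2 ratio of 1.98, and Il7r and Cxcr6 were lower. NK cells and type 1 innate lymphoid cells were not told apart here.

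Of 11 measured cytotoxic granule genes, 6 were higher in Ncr1-bearing NCD members and 0 were lower. Gzma, a tryptase granzyme, had 119 UMIs in 5 of 17 Ncr1-bearing members and 10 UMIs in 3 of 16 CD8-bearing members (1323 and 118 CPM). Without the member with most Gzma UMIs (76), Ncr1-bearing members had 532 CPM. Ctsw, a cathepsin of cytotoxic cells, had 900 CPM in Ncr1-bearing and 295 CPM in CD8-bearing members. The granzyme inhibitors Serpinb9 and Serpinb6b had 32 and 27 UMIs in Ncr1-bearing members, against 3 and 0 in CD8-bearing members. For Serpinb9, 15 of the 32 UMIs were in 1 member. Tbx21, which encodes T-bet, had 36 UMIs in 14 Ncr1-bearing and 8 UMIs in 5 CD8-bearing members. Il12rb2, an interleukin 12 receptor chain, had 18 UMIs in Ncr1-bearing and 0 in CD8-bearing members, at least 5.65-fold higher. Il2rb, the beta chain of the interleukin 2 and 15 receptors, had 1112 and 543 CPM, and 1048 CPM in Ncr1-bearing members without the highest one, under 2-fold. Ccl4, a chemokine of activated cytotoxic cells, had 1156 and 342 CPM (762 without the highest Ncr1-bearing member), while Nkg7 had 1856 and 1345 CPM and so lay under 2-fold. Of 16 measured genes of the T cell receptor complex, 6 were lower and 1, Trbc1, was higher in Ncr1-bearing members. Il7r, the interleukin 7 receptor chain, had 378 CPM in Ncr1-bearing and 1191 in CD8-bearing members. Cd3e had 178 CPM in Ncr1-bearing and 979 CPM in CD8-bearing NCD members. A UMI of Cd3d, Cd3e or Cd3g was present in 7 of 17 Ncr1-bearing and 16 of 16 CD8-bearing NCD members, and a T cell receptor beta variable segment in 5 of 17 and 14 of 16. In the Srebf2 pool, 3 of 3 KO and 3 of 4 WT Ncr1-bearing members had a CD3 UMI and likewise 3 of 3 and 3 of 4 had a beta variable segment. Ncr1-bearing barcodes without any CD3 UMI thus numbered 10 in NCD, 0 in KO and 1 in WT.

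Most CD8-bearing members carried CD3, Ccl5 and Nkg7 transcripts. A CD3 UMI was present in 8 of 8 KO, 17 of 18 WT, 67 of 67 HFD and 16 of 16 NCD CD8-bearing members. Ccl5, a chemokine of effector and memory T cells, had 12260 CPM in KO, 9442 in WT, 8573 in HFD and 9023 in NCD CD8-bearing members, against 693, 256, 466 and 457 CPM in Foxp3-detected barcodes of the same conditions. Nkg7 had 1381, 1676, 1872 and 1345 CPM in CD8-bearing members and 144, 69.8, 86.9 and 87.4 CPM in Foxp3-detected barcodes. Ccl5 was detected in 7 of 8 KO, 17 of 18 WT, 60 of 67 HFD and 16 of 16 NCD CD8-bearing members, and Nkg7 in 7, 17, 65 and 16. Both genes were thus many times higher than in Foxp3-detected barcodes in every condition. Ly6c2, carried by memory CD8 T cells and NK cells, was detected in fewer members than Ccl5 or Nkg7. Over members of all kinds, it had UMIs in 5 of 13 KO, 15 of 24 WT, 33 of 75 HFD and 30 of 38 NCD. Its level was 864 CPM in KO, 1634 in WT, 821 in HFD and 2079 in NCD members, against 11.5, 8.0, 13.2 and 23.4 CPM in Foxp3-detected barcodes.

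Over all genes measured, 7.84% were 2-fold or more higher and 13.6% lower in KO members than in KO Foxp3-detected barcodes. The shares were 8.29% and 9.62% in WT, 2.88% and 3.55% in HFD, and 9.94% and 6.35% in NCD. For CD8-bearing members alone they were 2.87% and 3.78% in HFD and 5.09% and 11.9% in NCD. Part of the lower genes had 0 UMIs in members: 46 of 343 in KO, of which 28 were less than 2-fold lower at the 3-count limit, and 29 in NCD CD8-bearing members, of which 18 were. Among the lower genes were those of adipose Tregs. Il1rl1, the receptor of interleukin 33, had 14.2 CPM in KO, 79.5 in WT, 44.9 in HFD and 170 in NCD members, against 624, 736, 156 and 854 CPM in Foxp3-detected barcodes. Areg, the tissue repair factor amphiregulin, had 170, 79.5, 347 and 1130 CPM in members and 2528, 2691, 722 and 3338 CPM in Foxp3-detected barcodes. Pparg, the lipid regulator of adipose Tregs, had 1 UMI in KO CD8-bearing members, 2 in WT, 2 in HFD and 2 in NCD.

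Treg transcripts were not absent from the members. A UMI of Ctla4, Ikzf2, Il2ra or Il1rl1 was present in 10 of 13 KO, 21 of 24 WT, 56 of 75 HFD and 23 of 38 NCD members. The same 4 genes gave a UMI in 27.6% of KO, 23.1% of WT, 17.5% of HFD and 25.7% of NCD B cell gene barcodes, and in 97.7% to 99.7% of Foxp3-detected barcodes. Ikzf2 had 283 CPM in KO, 433 in WT, 447 in HFD and 273 in NCD members, against 17.7, 17.6, 14.4 and 16.9 CPM in B cell gene barcodes and 868, 868, 1099 and 779 CPM in Foxp3-detected barcodes. A Cd4 UMI was present in 4 KO, 6 WT, 16 HFD and 5 NCD members, and in 1 of 240 B cell gene barcodes. HFD members with a Cd4 UMI had a median of 7741 UMIs, and those without it 4168. Of the 31 members with Cd4, 25 were CD8-bearing. By kind, a UMI of the 4 Treg genes was present in 52 of 67 HFD and 8 of 16 NCD CD8-bearing members, and in 13 of 17 NCD Ncr1-bearing members. Hashtags remove barcodes that mix 2 conditions, but a droplet with 2 cells of 1 condition passes, and its part in the Treg transcripts was not tested.

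The HFD and NCD members were compared over 3838 genes, of which 4.72% were 2-fold or more higher and 8.75% lower in HFD. NK genes led the lower end. Of 18 measured NK-cell receptor and adaptor genes, 0 were higher and 14 were lower, with a median log2 ratio of -4.40 (-4.00 with genes at 0 UMIs set to their limit), beside -0.08 over all genes. The list held 32 genes, and 3 of the 18 measured had 0 UMIs in 1 condition. Since a gene was measured through its higher condition, this count is a description only. Tyrobp had 7 UMIs in 2 HFD members (5 of them in 1 member) and 191 in 19 NCD members. Gzma had 0 UMIs in HFD and 129 in 8 NCD members (76 of them in 1 member), at least 88.9-fold lower in HFD. Of 15 measured cytotoxic granule genes, 0 were higher and 5 lower, with a median log2 ratio of -0.59. The makeup of the members differed as well, 0 Ncr1-bearing in HFD against 17 in NCD, so the CD8-bearing members were also compared alone, a comparison added after the makeup had been seen. There the median of the cytotoxic list was 0.47 over 11 measured genes, beside 0.17 over all genes. Gzma and Gzmb, both among the 5 lower genes over all members, were not measured there. The medians thus cover different genes.

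The CD8-bearing members were 67 from HFD and 16 from NCD. The HFD ones had more transcript of genes linked to chronic stimulation and less of several genes that were also high in NCD Tregs. Among the higher genes, Tox, Pdcd1 and Bhlhe40 were also higher in HFD than in NCD Foxp3-detected barcodes. The part of Treg RNA in that rise was not tested. Of 2721 genes measured, 12.9% were 2-fold or more higher and 4.19% lower in HFD, with a median log2 ratio of 0.17 over all genes. Among the 352 higher genes, 37 had 0 UMIs in NCD, and for 29 of these the 3-count limit gave less than 2-fold. NCD members of this kind summed to 84780 UMIs and HFD members to 364280, so a gene in NCD needed 35.4 CPM to reach 3 UMIs.

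Of 8 measured inhibitory receptor genes and Tox, 4 were higher and 0 lower in HFD, with a median log2 ratio of 0.93 (0.66 with the gene at 0 UMIs at its limit). Tox, a chromatin factor that sustains chronically stimulated CD8 T cells, had 243 UMIs in 57 of 67 HFD members and 14 UMIs in 9 of 16 NCD members, 667 and 165 CPM, a log2 ratio of 1.97 (1.24 to 2.91). Pdcd1, which encodes the inhibitory receptor PD-1, had 148 UMIs in 38 HFD members and 9 in 5 NCD members, 406 and 106 CPM, a log2 ratio of 1.86 (0.97 to 3.09). Havcr2, which encodes TIM-3, had 19 UMIs in 11 HFD members and 0 in NCD, at least 1.47-fold higher. Tigit, with 406 CPM in HFD and 248 in NCD, and Ctla4, with 505 and 318 CPM, lay under 2-fold. Tregs express Tox and Pdcd1 too: in Foxp3-detected barcodes Tox had 436 CPM in HFD and 205 in NCD, and Pdcd1 had 313 and 196 CPM. B cell gene barcodes held Tox at 14.4 and 2.81 CPM and Pdcd1 at 14.4 and 1.41 CPM in HFD and NCD. Without the NCD member with most UMIs of the gene, the log2 ratio was 2.62 for Tox and 2.56 for Pdcd1. After thinning to 1500 UMIs, Tox was detected in 39 of 65 HFD and 3 of 16 NCD CD8-bearing members, and Pdcd1 in 24 of 65 and 2 of 16.

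Of 13 measured transcription factor genes of effector and memory T cells, 3 were higher and 0 lower in HFD, with a median log2 ratio of 0.04, under the 0.17 of all genes. Bhlhe40 had 425 CPM in HFD and 106 in NCD, a log2 ratio of 1.93 (1.04 to 3.16). Batf, a partner of AP-1 factors, had 61 UMIs in 34 HFD members and 2 in 1 NCD member, a log2 ratio of 2.52 (0.91 to 5.91). Eomes had 42 UMIs in HFD and 3 in NCD, a log2 ratio of 1.50 (0.06 to 4.04). From other lists, Maf, a factor of interleukin 10 and follicular helper programmes, had 76 UMIs in HFD and 3 in NCD. Nr4a2, induced by receptor signalling, had 480 and 106 CPM. It was the only higher gene of the early response list, where Nr4a1, Egr1, Jund and Zfp36 were 2-fold or more lower in HFD. Without the NCD member with most UMIs of the gene, the log2 ratio of Eomes was 2.68, of Maf 3.48 and of Nr4a2 2.84, and Batf had 0 UMIs left in NCD. In Foxp3-detected barcodes, Nr4a2 had 127 CPM in HFD and 121 in NCD and Maf 286 and 300 CPM, while Bhlhe40 had 247 and 54.7 CPM. Gzmk, one of the genes of the rule, had 382 CPM in HFD and 153 in NCD CD8-bearing members. Of 11 measured cytotoxic granule genes, 4 (Cst7, Ctsc, Rab27a and Serpinb6b) were higher and 0 lower. In NCD, Cst7 had 8 UMIs and Ctsc and Rab27a had 3 each. Serpinb6b had 21 UMIs in HFD and 0 in NCD, less than 2-fold higher at the 3-count limit. Prf1, which encodes perforin, had 65.9 CPM in HFD and 82.6 in NCD. The granzymes Gzma and Gzmb were under the 5-cell minimum in NCD and so stand outside that count. Gzma had 0 UMIs in 67 HFD CD8-bearing members, which allows up to 8.24 CPM (3 counts), and 10 UMIs in 3 of 16 NCD ones (118 CPM), 7 of them in 1 member. Gzmb had 7 UMIs in 6 HFD members and 5 in 3 NCD members, 19.2 and 59.0 CPM. Without the HFD member with most Cst7 UMIs, its log2 ratio was 0.94, under 2-fold.

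The lower end in HFD held genes that NCD Tregs express strongly. Of 5 measured NK-cell receptor genes, 2, Klrg1 and Cd226, were lower. Klrg1, a receptor of late effector cells and of adipose Tregs, had 27 UMIs in 8 HFD and 38 in 7 NCD CD8-bearing members, 74.1 and 448 CPM, a log2 ratio of -2.59 (-3.36 to -1.85). Anxa1, which encodes annexin A1, had 24.7 and 248 CPM. Hilpda, a lipid droplet gene, had 102 and 495 CPM, and Areg had 382 and 1757 CPM, the NCD value from 149 UMIs in 6 members. A single HFD member held 104 of the 139 Areg UMIs there, and HFD had 97.7 CPM without it. For Hilpda, 1 NCD member held 17 of 42 UMIs, and NCD had 321 CPM without it. In Foxp3-detected barcodes, Klrg1 had 172 CPM in HFD and 1138 in NCD, Anxa1 63.4 and 895, Hilpda 167 and 703, and Areg 722 and 3338. Each gene thus had the same direction in Tregs, at higher levels. B cell gene barcodes held Klrg1 at 4.81 CPM in HFD and 0 in NCD, and Areg at 4.81 and 7.04 CPM. Il1rl1 had 18 UMIs in 8 of 67 HFD and 18 UMIs in 7 of 16 NCD CD8-bearing members. The part of Treg RNA in these differences was not tested. Myc had 46.7 CPM in HFD and 413 in NCD CD8-bearing members, against 105 and 146 CPM in Foxp3-detected barcodes. Of its 35 NCD UMIs, 20 were in 1 member, and NCD had 188 CPM without it.

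Chemokine and cytokine genes differed singly. Ccr2, a receptor for monocyte chemokines, had 29 UMIs in 16 of 67 HFD and 23 UMIs in 9 of 16 NCD CD8-bearing members, a log2 ratio of -1.78 (-2.61 to -0.91). Ccl3 had 57 UMIs in 9 HFD and 2 UMIs in 2 NCD members, but 39 of the 57 were in 1 member, and without it the log2 ratio was 0.80, under 2-fold. Tnf had 24 UMIs in 16 HFD and 23 in 7 NCD members, 65.9 and 271 CPM. Ifi27l2a, an interferon response gene, had 428 CPM in HFD and 153 in NCD. Of 17 measured genes of the T cell receptor complex, 2 were higher and 0 lower, with a median log2 ratio of 0.16, so T cell receptor genes as a list lay near the median of all genes. Of 15 measured early response genes, 1 (Nr4a2) was higher and 4 (Egr1, Jund, Nr4a1 and Zfp36) were lower in HFD.

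**Figure D4:**
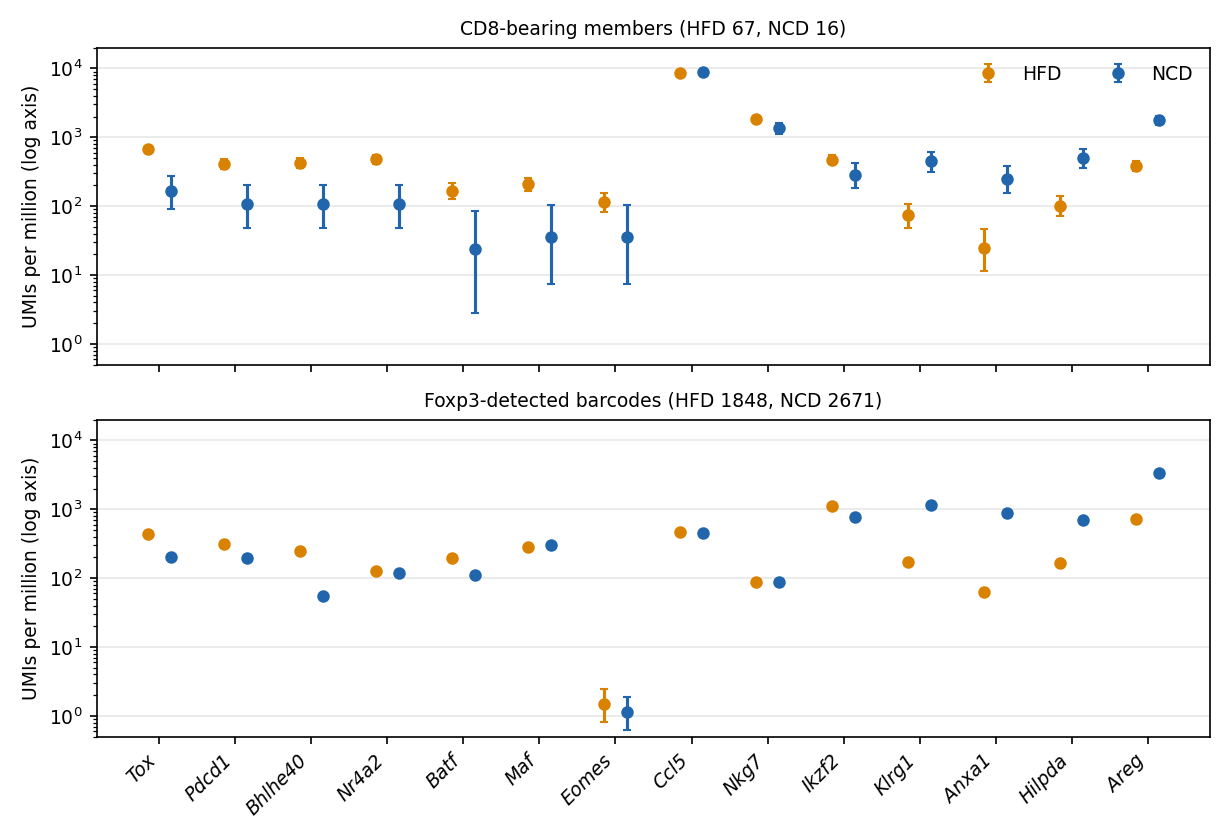
CPM (log axis) of 14 genes in HFD and NCD, summed over CD8-bearing members (upper panel) and over Foxp3-detected barcodes (lower panel), with 95% Poisson intervals. Tox, Pdcd1, Bhlhe40, Nr4a2, Batf, Maf and Eomes are higher in HFD CD8-bearing members, while Klrg1, Anxa1, Hilpda and Areg are higher in NCD in both panels. Tox, Pdcd1 and Bhlhe40 are higher in HFD in the lower panel as well.

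T cell receptor beta variable segments were read from the 5′ libraries. Among CD8-bearing members, Trbv12-2 had UMIs in 28 of 67 HFD (41.8%, 29.8 to 54.5) and 7 of 16 NCD members (43.8%, 19.8 to 70.1), against 26.7% of HFD and 25.5% of NCD Foxp3-detected barcodes. Trbv19 had UMIs in 17 HFD members (25.4%, 15.5 to 37.5) and 3 NCD members (18.8%, 4.05 to 45.6), against 9.63% and 3.44% of Foxp3-detected barcodes. The HFD intervals of both segments lie above those of HFD Foxp3-detected barcodes, as do those of Trbv16 (12 of 67) and Trbv17 (6 of 67), while the NCD intervals of Trbv12-2 and Trbv19 overlap. These were picked from 22 beta segments detected in HFD CD8-bearing members, of which no other lay above. The 46 alpha segments detected there are not gone through here. Among them, Trav12-1 also lay above (10.4%, 4.30 to 20.3, against 1.62%, 1.10 to 2.31). Members were also deeper, with a median of 5217 UMIs in HFD members and 3782 in HFD Foxp3-detected barcodes, and more than 1 beta segment was present in 44 of 67 and 724 of 1848. After thinning to 1500 UMIs, Trbv12-2 was detected in 15 of 65 HFD CD8-bearing members (23.1%, 13.5 to 35.2) and 15.6% of HFD Foxp3-detected barcodes, and Trbv19 in 11 of 65 (16.9%, 8.76 to 28.3) and 7.26%. There the HFD intervals of Trbv12-2 and Trbv16 overlapped those of Foxp3-detected barcodes, and those of Trbv19 and Trbv17 did not. Segment reads can be shared between related copies, so detection is not a clone count. By the segment with most UMIs, 11 HFD members were led by Trbv3, 10 by Trbv12-2, 9 by Trbv19 and 8 by Trbv16. In HFD, 58 CD8-bearing members had both a leading beta and a leading alpha segment, in 51 different pairs. Of these pairs, 5 were shared by 2 or more members, 12 members in all, and the most frequent joined Trbv16 with Trav14d-3-dv8 in 3 members. In NCD the 12 members with both chains had 12 different pairs, as did the 8 of 8 in KO and the 12 in WT with none shared. Most CD8-bearing members thus had a segment pair of their own.

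**Figure D5:**
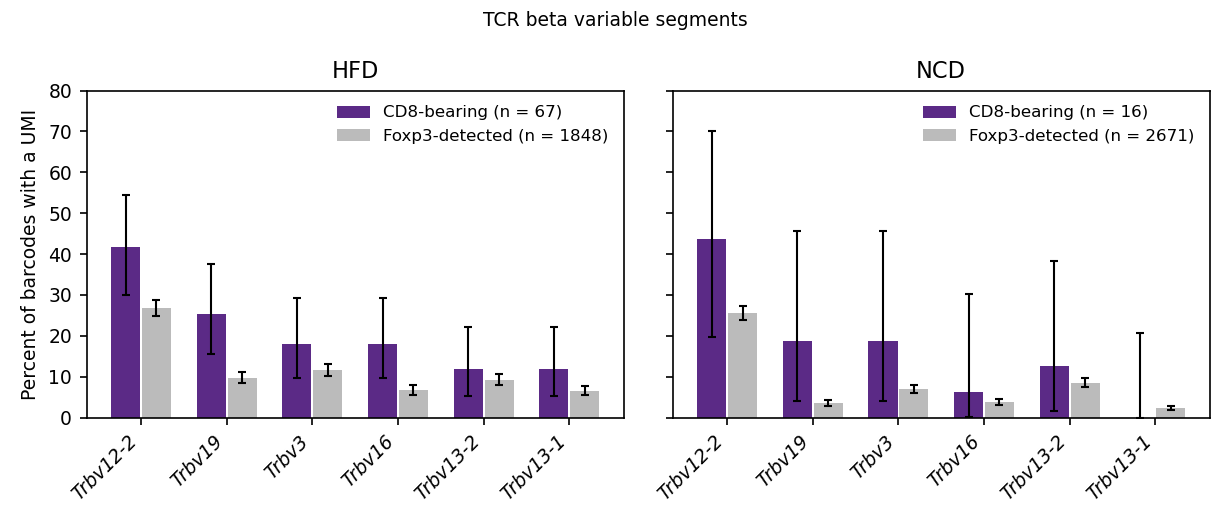
Percent of barcodes with a UMI of 6 T cell receptor beta variable segments in CD8-bearing members and in Foxp3-detected barcodes, for HFD (67 and 1848 barcodes) and NCD (16 and 2671), with 95% exact intervals. Trbv12-2 and Trbv19 stand above Foxp3-detected barcodes in HFD with all UMIs counted, at a greater depth of the members.

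The 17 members with neither a CD8 chain nor Ncr1 were 2 in KO, 2 in WT, 8 in HFD and 5 in NCD, and 16 of them had a CD3 UMI. Nkg7 was detected in 2 KO, 1 WT, 8 HFD and 5 NCD of these members. Fcer1g was detected in 1 KO, 1 WT, 4 HFD and 4 NCD members, and Klrb1c in 2, 1, 3 and 4. Trdc, the constant segment of the delta chain of gamma-delta T cells, was detected in 3 of the 5 NCD members and 1 of the 2 WT members. Over all members Trdc was detected in 7 of 150.

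The KO and WT members were few, 13 and 24, with 70566 and 113207 UMIs in all, and a single KO member held 13.5% of the KO sum. Srebf2, the deleted gene, had 0 UMIs in KO members, which allows up to 42.5 CPM, and 2 UMIs (17.7 CPM) in WT members, so its level could not be compared at this depth. In Foxp3-detected barcodes Srebf2 had 3.04 CPM in KO and 65.7 CPM in WT. Apobec3, which like Srebf2 lies on chromosome 15, had 7 UMIs (99.2 CPM) in KO members and 34 UMIs (300.3 CPM) in WT members, a log2 ratio of -1.52 (-3.02 to -0.40), and 29.1 and 210 CPM in Foxp3-detected barcodes. In B cell gene barcodes, a lineage without Foxp3, Apobec3 had 3 UMIs in 29 KO and 58 UMIs in 39 WT barcodes (17.7 and 340 CPM), and Srebf2 had 41.2 and 46.9 CPM. The Apobec3 difference was thus present in each of these groups. Over 2058 genes, 7.14% were 2-fold or more higher and 9.96% lower in KO members. Ccl5 had 8489 CPM in KO and 8560 in WT, Cd3e had 978 and 919, and Gzmk had 241 and 292. The interval of the log2 ratio of Ccl5 was -0.16 to 0.14.

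Of 10 measured cytokine receptor genes, 3 were higher and 0 lower in KO members. Il18rap and Il18r1, the 2 chains of the interleukin 18 receptor, had 18 and 23 UMIs in KO members against 8 and 12 UMIs in WT members, log2 ratios of 1.80 (0.58 to 3.26) and 1.59 (0.55 to 2.76). Il7r, the receptor of a survival cytokine, had 850 CPM in KO and 398 in WT. Bach2, a repressor that restrains effector genes, had 29 UMIs in 6 KO and 11 in 5 WT members. At the lower end, Ifng had 13 UMIs in 6 KO and 50 in 13 WT members, a log2 ratio of -1.22 (-2.27 to -0.36), and Tox had 13 UMIs in 7 KO and 53 in 15 WT members, -1.30 (-2.35 to -0.45). Single members decided 4 of these values. Without the WT member with most UMIs of the gene (22 for Tox and 15 for Ifng), the log2 ratio was -0.62 for Tox and -0.80 for Ifng. Without the KO member with most UMIs of the gene (10 for Il18r1 and 13 for Il7r), it was 0.89 for Il18r1 and 0.84 for Il7r, so each of the 4 then lay under 2-fold. Of 16 measured early response genes, which tissue dissociation is known to induce, 5 were lower and 1, Zfp36, was higher in KO. Jun had 56.7 CPM in KO and 247 in WT, and Hspa1b 113 and 406. Among CD8-bearing members alone, 8 from KO and 18 from WT, 6.12% of 1226 genes were 2-fold or more higher and 14% lower. Of the 172 lower genes, 14 had 0 UMIs in KO and 9 of these were less than 2-fold lower at the limit. Of 4 cytokine receptor genes measured in CD8-bearing members, 0 were higher and 1, Il27ra, was lower in KO. Neither Il18rap nor Il18r1 was measured in these members. Bach2 was not among their higher genes, while Il7r was. There Tox had 291 CPM in KO and 588 in WT, or 337 CPM in WT without its highest member, and Ifng had 267 and 275 CPM, a log2 ratio of -0.01 (-1.24 to 1.06) for Ifng. In Ncr1-bearing members Ifng had 1 UMI in 3 KO and 24 UMIs in 4 WT barcodes.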

How the data were processed

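From 5′ single-cell RNA libraries with hashtag antibodies, the authors deposited raw UMI counts per gene and barcode for each pool. Alignment was to mm10 with Cell Ranger 7.0.1 per the submitters' processing notes; per the file headers the version was 7.1.0 in the KO and WT matrix and 7.0.1 in the HFD and NCD matrix. No authors' cell types were used. Barcodes were filtered and assigned from the hashtag counts as described at the opening (10 or more hashtag counts), and no doublet caller was run. The members and gene lists were chosen with earlier results of these data known. UMIs were summed per condition and group, given as CPM with Poisson intervals, and compared by size only, at 2-fold, with a binomial interval of the ratio (Python 3.11.15, scipy 1.17.1). The ratio code was tested on simulated data. Genes named were the 12 highest and 12 lowest per comparison, up to 4 per list, and the genes of the rule with Cd4, Foxp3, Srebf2, Apobec3, Il1rl1 and Pparg; others (for example Cd3e and Tigit between conditions, Ikzf2, Trdc, Prf1 and Gzmb) were chosen after their values were seen. RefSeq tables of GRCm38.p6 supplied promoters and positions. Some genes that the naming rule takes are not reported here.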

Additional observations from a re-analysis of the deposited data

Results flagged for a closer look

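Markers of the cytotoxic kinds also appeared in barcodes that the comparisons leave out. Foxp3-detected barcodes with 2 or more of the 8 marker genes numbered 9 in KO, 4 in WT, 22 in HFD and 33 in NCD. In the diet pool, 7 barcodes met the rule but had no single hashtag, and in the Srebf2 pool 2 did.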

How the results depend on the processing

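No paired analysis was possible because each condition was 1 pool of mice, and for the same reason no replicate could be left out. Without members holding a UMI of the 4 Treg genes, NCD had 15 members, of which 8 were CD8-bearing and 4 Ncr1-bearing, beside 16 and 17 among all 38. With 3 or more marker genes the HFD share was 1.19%. Without members holding a UMI of the 4 Treg genes, the CD8-bearing share of members was 33.3% in WT (3 members left) and 78.9% in HFD, and the Ncr1-bearing share was 26.7% in NCD; it was 26.3% when NCD members were chosen on all UMIs and then thinned. Counts of genes depended on the filter. In KO over WT, the 147 higher and 205 lower genes became 39 and 51 after thinning, 1097 and 999 with 3 UMIs as the only filter, 5 and 19 with 30 UMIs, 100 CPM and 10 cells, and 75 higher with CD8-bearing members only; with 2 counts added 110 were lower. In HFD over NCD, the 181 higher and 336 lower genes became 106 and 103 without members holding Treg gene UMIs, 1123 and 1196 with 3 UMIs, 54 and 59 with the strict filter, and 352 and 114 with CD8-bearing members only, while 150 were lower after thinning. KO over WT could not be computed without members holding Treg gene UMIs, since no gene was left. Ratios without the highest member of a gene and thinned beta segments were added after seeing the data. The cause of these moves was not tested, apart from fewer genes and cells in the stricter settings. Median log2 ratios of gene lists moved in 14 further cases, and some changed sign: over all members in HFD over NCD, the circulation and lymphoid homing list had -0.75, and 0.04 without members holding a Cd4 UMI, and the early response list had -0.17, and 0.33 without them; in KO over WT, the inhibitory receptor list had 0.20, and -1.04 after thinning. With CD8-bearing members only, the NK list median in HFD over NCD was -0.17 and the cytotoxic list median 0.47. These covered 5 and 11 measured genes, where all members had 18 and 15. Depth limits most of all the KO and WT members, whose single genes rest on few UMIs.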
